A study of Mus musculus with 25 samples.

Results

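The genes described are the C-type lectins and lectin-like natural killer (NK) receptors that could be measured in mouse liver during concanavalin A (ConA) hepatitis. They were chosen by name: every gene whose symbol starts with Clec or with Klra to Klrk followed by a digit, apart from Clec4g, Clec4f and Klrk1, with a probe well above background on at least 5 of 25 arrays. Of 64 symbols of this form in the RefSeq gene table, 54 had a probe, and 37 of those passed, out of 15104 genes measured in all. The other 17 were too dim, and 10 had no probe. Just inside the limit lay Klra6 and Klrb1b, each above background on 5 arrays, and Clec2l and Klrb1, each on 7. Just outside it lay Klri2 with 3 arrays and Clec5a and Clec18a with 2 each. Of the 37 members, 32 lie on chromosome 6, where the mouse keeps its natural killer gene complex, 15 were above background on all 25 arrays, and 11 had at least 1 group in which no array was above background.

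The livers came from 25 female C57BL/6NcrSlc mice, 5 in each of 5 groups, with 1 single-colour Agilent array of whole-liver RNA for each mouse. Untreated mice were the control. All other mice received 10 mg/kg ConA, a lectin of the jack bean that drives a T cell attack on the liver. After 15 minutes they were given vehicle or 1 mg/kg BW245C, an agonist of the prostaglandin D2 receptor DP1, and livers were taken at 3 hr or at 24 hr. Between 52.2% and 61.6% of the spots of an array were well above background and none was saturated. Precision is limited by how few arrays each group has. A level is a log2 processed signal set relative to the 75th percentile of that array, so 0 is that percentile itself, and levels are compared between arrays and never between genes. Changes are differences of group means from limma with their standard error, and a member was called changed at an adjusted p under 0.05 (Benjamini-Hochberg over all 15104 genes). In whole liver, fewer cells of a type and less RNA per cell cannot be told apart.

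The arrays lay on 5 slides that overlapped only in part with the groups, so values from a fit with slide terms (a slide block), and from any slide shared by both groups, are given too. Untreated arrays and those of ConA + vehicle 24 hr never shared a slide. Slide 3 held all 5 ConA + BW245C arrays at 3 hr and only 2 of the ConA + vehicle arrays at that time.

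C-type lectins carry a fold first described in proteins that bind sugars in a calcium-dependent way. Those of the Dectin and Mincle groups include receptors of macrophages, neutrophils and dendritic cells for microbial glycans and for material from dying cells. Some of them, such as Mincle, signal through Fc receptor gamma chain, SYK and CARD9. The NK receptors of the Ly49, CD94 and NKR-P1 groups have lost sugar binding and read MHC class I or Clec2 proteins on other cells, some to inhibit and some to activate the NK cell. Liver is rich in NK cells, macrophages and sinusoidal endothelium, each of which carries its own members of the family.

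At 3 hr after ConA 23 of the 37 members changed, 13 higher and 10 lower than in untreated livers. Those higher were Clec4d, Clec4e, Clec4n, Clec2d, Clec3b, 6 of 9 Ly49 members and 2 of 4 NKR-P1 members. Those lower were Clec4a1, Clec4a3, Clec1a, Clec1b, Clec2h, Clec11a, Clec14a, Klra2, Klrd1 and Klrg1. Over all 15104 genes 62% were called, 24.9% higher and 37% lower, so the share of members called was near that of all genes. The median change of the members was 0.23 and that of all genes was -0.09 on the log2 scale. For 12 members no array of either group lay in the range of the other, against 47.4% of all genes. Under a slide block 17 members were called, 16 of them among the 23 with the same direction. All 23 had the same sign within slide 1 and within slide 2, with Klrg1 at -0.0076 in slide 2. Slide 1 held 1 ConA + vehicle array at 3 hr and 4 untreated arrays, and slide 2 held 2 and 1. These arrays also entered the calls, so the like signs are no separate support.

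At 24 hr after ConA 27 of the 37 members changed, 21 higher and 6 lower than in untreated livers, where 68.9% of all genes were called, 29.7% higher and 39.1% lower. The median change was 0.66 for the members and -0.08 for all genes. Higher were all 4 NKR-P1 members, both CD94 members, 7 of 9 Ly49 members and none of the 2 Klrg1 members. These counts depend in part on how members were chosen: several passed the limit of 5 arrays mostly through 24 hr arrays, all 5 for Klra6, 4 of 5 for Klrb1b, 9 of 10 for Klre1 and 5 of 7 for Klrb1. Among the 15 members above background on all 25 arrays, 6 were higher and 4 lower with a median of 0.12 at 24 hr, and 4 were higher and 4 lower with a median of 0.09 at 3 hr. The 2 groups' arrays did not overlap for 25 members, against 64% of all genes. Under a slide block 21 were called, 20 of them among the 27 with the same direction. Another background correction (normexp) divided 24 calls into 15 higher and 9 lower at this time, and divided 24 calls at 3 hr into 17 higher and 7 lower.

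The sizes of the changes depended on the background correction and its offset as well. The normexp setting added 50 to every signal, which by itself shrinks the changes of dim probes. Smaller sizes for dim members thus follow in part from the setting. Over the comparisons reported, all 98 calls of a member were smaller in size with normexp, and 54 of them by over 1.5 times (14 of 23 at 3 hr and 19 of 27 at 24 hr after ConA). Clec4e was then 4.13-fold higher at 3 hr and 8.04-fold at 24 hr, Clec4d 6.54-fold and 15.0-fold. At 24 hr Klra4 was 2.23-fold, Klra7 2.21-fold, Klra8 1.97-fold and Klrd1 2.04-fold higher, and Clec2h 2.14-fold lower. Clec14a was 3.07-fold lower at 3 hr and 3.50-fold lower at 24 hr. At 3 hr Clec1a was 1.33-fold, Clec4a3 1.71-fold and Clec2h 1.32-fold lower. At 24 hr Klre1 was 1.26-fold, Klra6 1.13-fold and Klrb1a 1.25-fold higher. These kept their direction and call. How much of the smaller sizes came from the offset was not tested. Some "at least" folds given below are larger than these values, so they apply to the processed signal only.

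**Figure D1:**
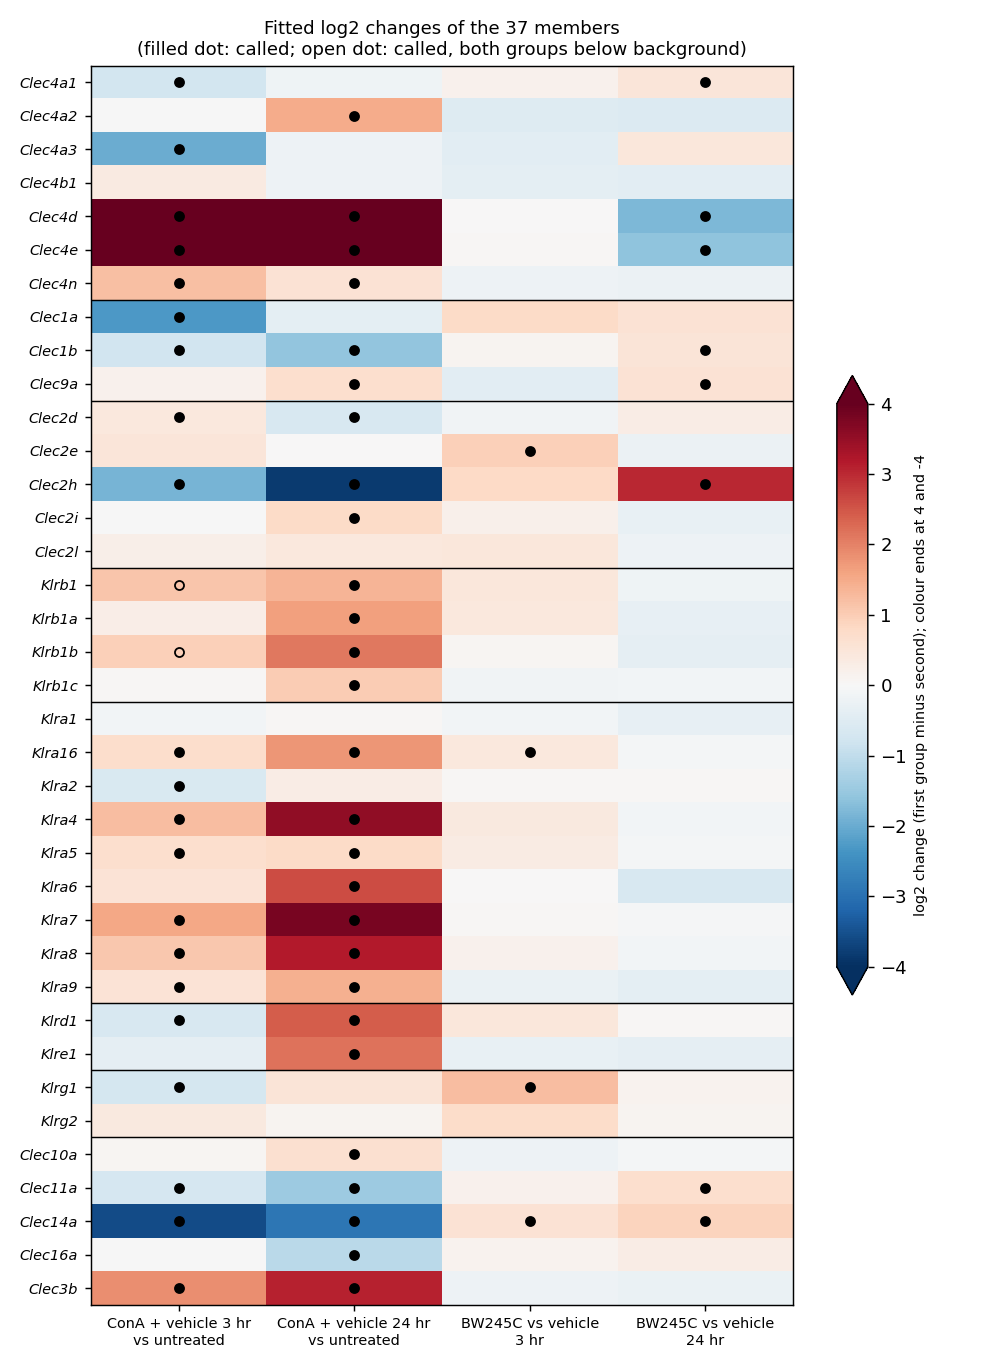
Colours give the fitted log2 change of each of the 37 members (rows, divided by lines into the family groups) in 4 comparisons (columns), with filled dots for members called at an adjusted p under 0.05 and open dots for the 2 called members whose groups were both below background. At 3 hr after ConA Clec4d was 4.52 higher, Clec4e was at least 14.8-fold higher with no untreated array above background (fitted value 5.43), Clec14a changed by -3.58, and in the BW245C columns few members carry a dot, 4 at 3 hr and 8 at 24 hr.

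The Dectin-2 and Mincle group had 7 members. Clec4e encodes Mincle, a receptor for mycobacterial glycolipids and for a nuclear protein released by dying cells. Its levels on the 5 untreated arrays were -6.34, -6.17, -6.25, -6.08 and -6.23, none well above background. On the ConA + vehicle arrays at 3 hr they were 0.05, -0.93, -1.04, -0.98 and -1.05, and at 24 hr 0.49, 0.98, 0.34, 0.33 and -0.21. Every array after ConA lay far above every untreated array. Clec4e was at least 14.8-fold higher at 3 hr (log2 5.43 ± 0.31, adjusted p = 6.43e-13 in limma) and at least 33.3-fold higher at 24 hr (log2 6.60 ± 0.31, adjusted p = 3.51e-14). An "at least" fold is used where no array of a group was well above background. Each array of the dim group is then set at its lowest signal well above background of any probe, or at the member's own level if higher. A probe can miss the flag above that signal: Klra8 on untreated replicate 2 was at -4.37, with the lowest flagged signal at -4.70. Such folds are therefore not strict minima. Under a slide block the log2 changes were 5.38 and 6.52, and within slides 1 and 2 the 3 hr changes were 5.18 and 5.74.

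Clec4d encodes MCL, which pairs with Mincle on the surface of myeloid cells. Its levels were -3.44, -5.05, -3.61, -3.93 and -3.27 on the untreated arrays, 4 of them above background. At 3 hr after ConA and vehicle they were 1.26, 0.76, 0.41, 0.57 and 0.28, and at 24 hr 2.04, 2.60, 1.98, 1.56 and 1.69. The 3 groups did not overlap and rose in that order. The rise was 22.9-fold at 3 hr (log2 4.52 ± 0.38, adjusted p = 3.68e-10) and 57.1-fold at 24 hr (log2 5.84 ± 0.38, adjusted p = 4.06e-12), and a slide block gave 29.7-fold and 79.3-fold. Within slides 1 and 2 the 3 hr log2 changes were 3.97 and 6.06.

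The gene starts of Clec4d and Clec4e lie close together on chromosome 6, and the 250 bases before each are shown because these 2 members rose together after ConA and were both lower with BW245C at 24 hr. The RefSeq sequences of build GRCm38.p6 are chr6:123261857-123262106 on the plus strand for Clec4d and chr6:123289872-123290121 on the minus strand for Clec4e, written 5′ to 3′ in the direction of the gene. Capitals mark GAGGAA, the core bound by the myeloid factor PU.1, and TTGCNNAA, a C/EBP element, on either strand, so the reverse complement of each is in capitals too.
Clec4d: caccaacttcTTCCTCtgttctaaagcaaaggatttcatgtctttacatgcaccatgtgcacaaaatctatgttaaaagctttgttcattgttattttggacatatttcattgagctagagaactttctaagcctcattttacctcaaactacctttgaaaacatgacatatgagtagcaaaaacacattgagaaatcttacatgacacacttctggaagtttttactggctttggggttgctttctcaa
Clec4e: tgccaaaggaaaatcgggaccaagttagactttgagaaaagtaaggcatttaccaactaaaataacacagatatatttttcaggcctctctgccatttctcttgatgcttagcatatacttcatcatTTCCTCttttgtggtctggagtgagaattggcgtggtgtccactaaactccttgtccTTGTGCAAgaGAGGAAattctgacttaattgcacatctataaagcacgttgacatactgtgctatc
Clec4e has GAGGAA at 2 places and TTGCNNAA at 1, and Clec4d has GAGGAA at 1 place and no match to TTGCNNAA. Of 27025 mouse promoters of this length, 23.1% hold GAGGAA and 9.55% hold TTGCNNAA. Neither window holds the AP-1 element TGANTCA (6.87% of promoters), the GAS element TTCNNNGAA (7.18%), the CRE half-site TGACG (17.9%), the T-box element TCACACC (3.31%) or an NF-kB site (5.7%). The 2 windows shared 147 identical bases in a global alignment, 58.8% of their length. That lies within the range of Clec4d against the Klra windows compared, 56.8% (Klra1) to 63.2% (Klra4). These matches describe letters only.

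The other members of the group moved less. Clec4n encodes Dectin-2, a receptor for fungal mannans. It stood at 0.71, 0.38, 0.66, 0.53 and 0.50 on the untreated arrays, at 2.41, 1.46, 1.80, 1.71 and 1.46 at 3 hr, and at 1.05, 1.74, 1.07, 0.98 and 0.80 at 24 hr. No vehicle array after ConA lay as low as any untreated one. It rose 2.32-fold at 3 hr (log2 1.21 ± 0.21, adjusted p = 2.97e-05) and 1.48-fold at 24 hr (log2 0.57 ± 0.21, adjusted p = 0.021), and the 24 hr call did not hold under a slide block (adjusted p = 0.138) and without the replicate 2 array of that group (log2 0.42, adjusted p = 0.083).

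Clec4a1, Clec4a2, Clec4a3 and Clec4b1 belong to the DCIR and DCAR branch, which holds both inhibitory and activating receptors of dendritic cells and macrophages. Clec4a3 was at -1.36, -1.82, -1.34, -1.30 and -1.76 on the untreated arrays, at -2.81, -3.89, -3.50, -3.02 and -4.35 at 3 hr, and at -2.21, -1.55, -1.88, -1.5 and -1.51 at 24 hr. All 3 hr arrays lay below both other groups. It fell 3.99-fold at 3 hr (log2 -2.0 ± 0.38, adjusted p = 7.76e-05, and -1.78 under a slide block), and at 24 hr the change was -0.21 ± 0.38 and did not pass (adjusted p = 0.624). Clec4a1 was 1.67-fold lower at 3 hr (adjusted p = 0.00018) and did not pass at 24 hr (log2 -0.17, adjusted p = 0.313). Clec4a2, an inhibitory member, was 2.82-fold higher at 24 hr (adjusted p = 0.00117), where it was above background on 5 arrays against 2 untreated ones, but its call did not hold under a slide block (adjusted p = 0.268) or with normexp (log2 0.21, adjusted p = 0.0934). Clec4b1 passed at neither time, with log2 changes of 0.37 and -0.19. The Clec4a and Clec4b genes are alike enough in sequence that a probe of one may read another, so their values are uncertain between copies.

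**Figure D2:**
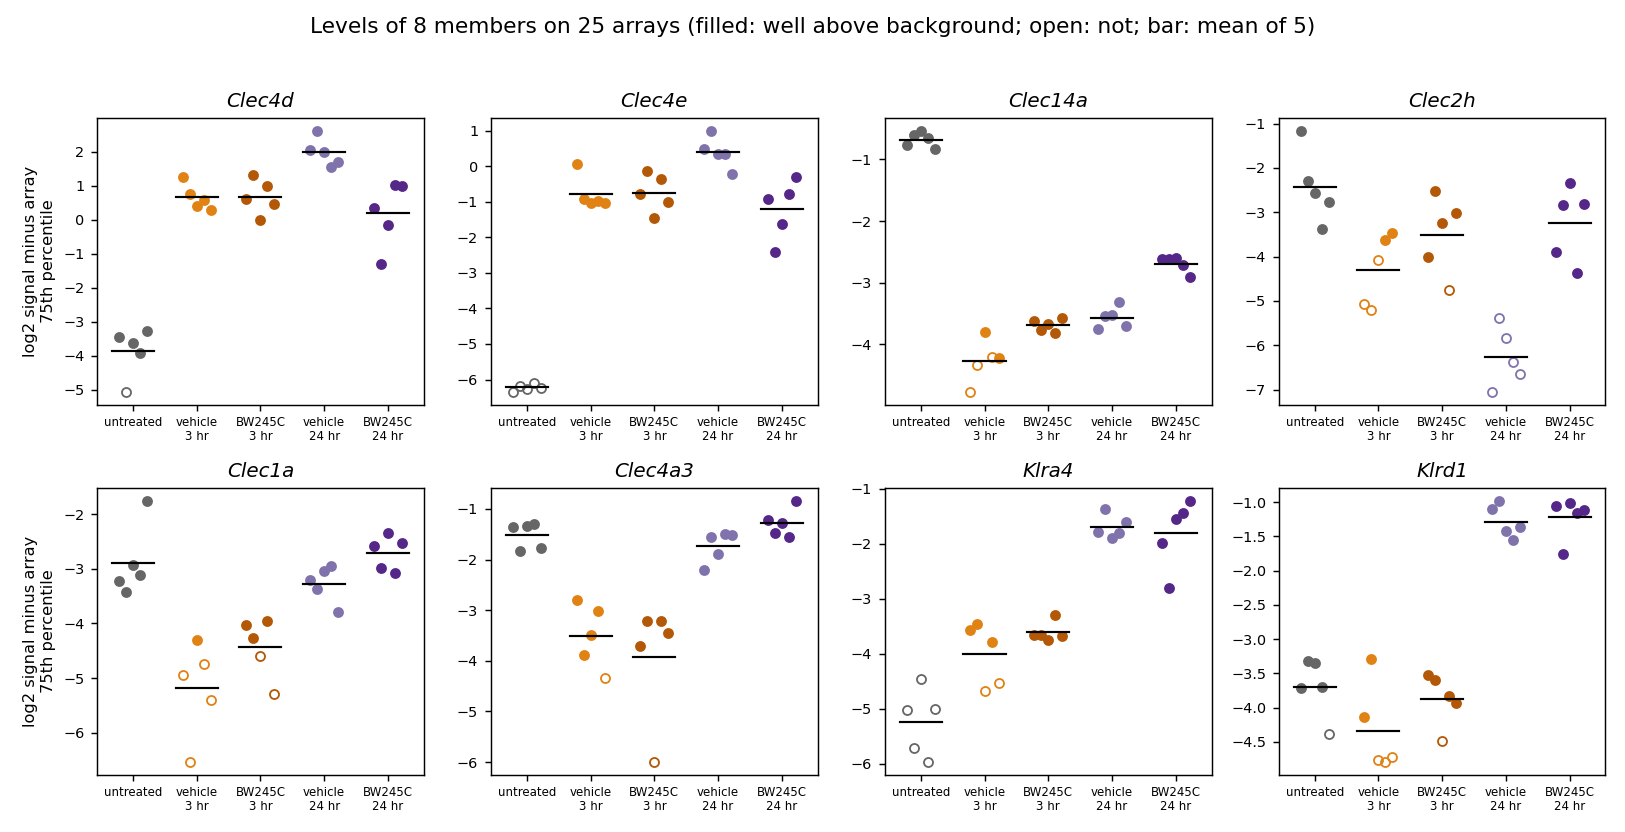
Points are the levels of 8 members (log2 signal minus the array's 75th percentile, vertical axis) on the 5 arrays of each group (horizontal axis), filled where well above background and open where not, with a bar at the mean of 5 arrays. Clec4d and Clec4e rose at both times after ConA, Clec14a fell at both, Clec1a and Clec4a3 were low at 3 hr only, Klra4 and Klrd1 were high at 24 hr, and no ConA + vehicle 24 hr array of Clec2h was above background.

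The Dectin-1 group had 3 members. Clec1b encodes CLEC-2, the platelet receptor for podoplanin. It was at 1.99, 1.61, 1.96, 1.89 and 1.91 on the untreated arrays, at 1.31, 0.76, 1.30, 1.23 and 0.97 at 3 hr, and at 0.62, 0.37, 0.27, 0.48 and -0.27 at 24 hr. The 3 groups did not overlap and fell in that order. The fall was 1.69-fold at 3 hr (log2 -0.76 ± 0.19, adjusted p = 0.0012) and 2.99-fold at 24 hr (log2 -1.58 ± 0.19, adjusted p = 8.89e-08), with block values of -0.62 and -1.18. A second probe gave -0.79 and -1.65, and the other one gave smaller changes of -0.11 and -0.60.

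Clec1a encodes CLEC-1, an endothelial and myeloid relative. Its levels were -3.22, -3.43, -2.93, -3.11 and -1.76 on the untreated arrays, -4.93, -6.53, -4.30, -4.75 and -5.41 at 3 hr, and -3.21, -3.36, -3.05, -2.95 and -3.79 at 24 hr. At 3 hr 1 array of 5 was above background, and every array lay below the untreated range. The fall at 3 hr was 4.90-fold (log2 -2.29 ± 0.34, adjusted p = 3.75e-06), with a block value of -1.82 and within-slide values of -1.54 and -2.30. At 24 hr the change was -0.38 ± 0.34 and did not pass (adjusted p = 0.328). Clec9a encodes DNGR-1, by which cross-presenting dendritic cells recognise the actin of dead cells. It did not pass at 3 hr (log2 0.17 ± 0.21, adjusted p = 0.504) and was 1.59-fold higher at 24 hr (log2 0.66 ± 0.21, adjusted p = 0.00831).

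The Clec2 group, whose proteins are ligands of the NKR-P1 receptors, had 5 members. Clec2h encodes Clr-f. It was at -1.17, -2.29, -2.57, -3.38 and -2.76 on the untreated arrays, at -5.07, -5.20, -4.08, -3.63 and -3.48 at 3 hr, and at -7.04, -5.38, -5.84, -6.37 and -6.64 at 24 hr. The 3 groups did not overlap. All 5 untreated arrays, 2 arrays at 3 hr and no array at 24 hr were above background. Clec2h fell 3.63-fold at 3 hr (log2 -1.86 ± 0.48, adjusted p = 0.00174) and at least 5.15-fold at 24 hr (log2 -3.82 ± 0.48, adjusted p = 2.11e-07), with block values of -1.93 and -3.82.

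The 250 bases before the start of Clec2h, chr6:128662135-128662384 on the plus strand of GRCm38.p6 from RefSeq, are shown because it was lower at both times after ConA and higher with BW245C than with vehicle at 24 hr. The capitals mark the single AP-1 element TGANTCA.
Clec2h: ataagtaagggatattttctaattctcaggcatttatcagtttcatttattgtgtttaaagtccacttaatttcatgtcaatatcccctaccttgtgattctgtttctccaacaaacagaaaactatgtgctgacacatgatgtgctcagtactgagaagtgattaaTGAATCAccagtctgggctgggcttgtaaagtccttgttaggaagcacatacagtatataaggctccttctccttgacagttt
Of the 6 other elements searched, none matched in this window. Clec2e, a neighbour in the group, also held TGANTCA at 1 place.

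Clec2d encodes Clr-b, which engages an inhibitory NKR-P1 receptor and is carried by many cell types. Its levels were 3.08, 2.83, 2.89, 2.70 and 2.99 on the untreated arrays, 3.27, 3.03, 3.29, 3.28 and 3.69 at 3 hr, and 2.25, 2.41, 2.17, 2.39 and 2.14 at 24 hr. The 24 hr arrays all lay below the untreated ones. It was 1.33-fold higher at 3 hr (log2 0.41 ± 0.13, adjusted p = 0.00965) and 1.54-fold lower at 24 hr (log2 -0.63 ± 0.13, adjusted p = 0.000225), where the block value of -0.38 did not pass (adjusted p = 0.169). Clec2i, which encodes Clr-g, was at -2.52, -2.85, -2.99, -2.72 and -2.71 on the untreated arrays and at -2.23, -1.98, -2.09, -1.59 and -2.01 at 24 hr, 1.71-fold higher without overlap (adjusted p = 2.04e-05), and its block value of 0.41 did not pass (adjusted p = 0.106). Clec2e, which encodes Clr-a, passed at neither time after ConA (log2 0.48 and 0.03), but under a slide block its 24 hr value was -1.2 and passed (adjusted p = 4.2e-05). Clec2l also did not pass (log2 change of 0.43 at 24 hr, adjusted p = 0.096), and no untreated array and no 3 hr vehicle array was above background for it. The Clec2 genes are uncertain between copies in the same way as Clec4a.

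The NKR-P1 group had 4 members, receptors of NK cells for Clec2 proteins. Klrb1c encodes the receptor by which mouse NK cells are commonly stained in C57BL/6. It was at -4.01, -4.32, -4.24, -4.24 and -4.16 on the untreated arrays, at -4.23, -4.08, -4.21, -4.28 and -3.99 at 3 hr, and at -3.28, -3.05, -3.30, -3.06 and -3.14 at 24 hr. The 3 hr arrays overlapped the untreated ones and the 24 hr arrays lay above both. The rise at 24 hr was 2.04-fold (log2 1.03 ± 0.34, adjusted p = 0.00973), and neither the block value of 1.23 (adjusted p = 0.128) nor the normexp value of 0.16 (adjusted p = 0.0687) passed. Klrb1a was 3.15-fold higher at 24 hr (log2 1.65 ± 0.31, adjusted p = 6.46e-05, block adjusted p = 0.00739), with 5 arrays above background against 1 untreated array. Klrb1b was at least 1.08-fold higher at 24 hr (log2 2.11 ± 0.40, adjusted p = 6.25e-05), with 2 arrays above background, and lost its call under the block (adjusted p = 0.0781). Klrb1 was called at 24 hr as well (log2 1.37 ± 0.34, adjusted p = 0.00105), with 2 arrays above background and no fold. With normexp neither Klrb1 (log2 -0.060, adjusted p = 0.575) nor Klrb1b (log2 -0.037, adjusted p = 0.727) passed at 24 hr, and both turned direction. At 3 hr Klrb1 and Klrb1b were called higher although no array of either group was above background, so these calls have no fold. Under a slide block neither passed at 3 hr (adjusted p = 0.0707 for Klrb1 and 0.322 for Klrb1b), and the Klrb1b call was lost without any one of 7 arrays (untreated replicates 1 to 4 and ConA + vehicle 3 hr replicates 1, 4 and 5; adjusted p up to 0.11).

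Ly49 receptors, encoded by the Klra genes, are the main MHC class I receptors of mouse NK cells, and 9 were members. Klra4 and Klra8 encode the activating receptors Ly49D and Ly49H, Klra1, Klra7 and Klra9 the inhibitory Ly49A, Ly49G and Ly49I, and Klra2 encodes Ly49B, found on myeloid cells. Klra4 was at -5.03, -5.71, -4.47, -5.96 and -5.01 on the untreated arrays, none above background. It was at -3.57, -3.47, -4.67, -3.79 and -4.54 at 3 hr and at -1.78, -1.36, -1.89, -1.79 and -1.60 at 24 hr. The 24 hr arrays lay above all others, and the 3 hr arrays of replicates 3 and 5 lay within the untreated range. Klra4 was at least 1.51-fold higher at 3 hr (log2 1.23 ± 0.29, adjusted p = 0.000717) and at least 7.53-fold higher at 24 hr (log2 3.55 ± 0.29, adjusted p = 1.6e-10, block 3.78).

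Klra8 stood at -4.07, -4.37, -4.40, -6.43 and -4.78 on the untreated arrays, at -3.46, -3.40, -3.97, -3.62 and -4.23 at 3 hr, and at -1.62, -1.40, -1.83, -1.82 and -1.49 at 24 hr. Its 24 hr arrays did not overlap with the other groups. The rise was 9.04-fold at 24 hr (log2 3.18 ± 0.32, adjusted p = 5.77e-09, block 3.20), and 2.10-fold at 3 hr (adjusted p = 0.00542), where the block value did not pass (adjusted p = 0.069). Klra7 was at -4.44, -6.59, -4.84, -5.87 and -5.35 on the untreated arrays, none above background, at -3.52, -3.84, -3.80, -3.84 and -4.42 at 3 hr, and at -1.66, -1.29, -1.77, -1.65 and -1.66 at 24 hr. The lowest of its 3 hr arrays was just above the highest untreated one. Klra7 rose at least 1.67-fold at 3 hr (log2 1.53 ± 0.31, adjusted p = 0.000155) and at least 8.09-fold at 24 hr (log2 3.81 ± 0.31, adjusted p = 1.77e-10, block 4.60), and its second probe gave 0.36 and 2.97.

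The 250 bases before the starts of Klra4 (chr6:130067272-130067521) and Klra8 (chr6:130129899-130130148), both on the minus strand of GRCm38.p6 in RefSeq, are shown because these activating receptors rose together and their windows are near copies. Capitals mark GAGGAA and TTGCNNAA on either strand.
Klra4: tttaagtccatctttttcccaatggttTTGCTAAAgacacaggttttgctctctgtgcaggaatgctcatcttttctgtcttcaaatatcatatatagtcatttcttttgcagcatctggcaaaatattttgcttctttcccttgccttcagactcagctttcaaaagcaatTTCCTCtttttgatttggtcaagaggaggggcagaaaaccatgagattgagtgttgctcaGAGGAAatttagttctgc
Klra8: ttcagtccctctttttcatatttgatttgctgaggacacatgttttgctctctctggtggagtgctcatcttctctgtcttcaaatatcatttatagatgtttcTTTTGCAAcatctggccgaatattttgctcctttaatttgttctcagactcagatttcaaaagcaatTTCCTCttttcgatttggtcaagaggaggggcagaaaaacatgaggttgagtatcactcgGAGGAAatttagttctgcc
In a global alignment 84.8% of the bases were identical, against 58.8% for Clec4d and Clec4e. Each window holds GAGGAA at 2 places and TTGCNNAA at 1. The window of Klra7, which rose as well, was 56.8% identical to that of Klra4 and 56.4% to that of Klra8, and held neither element. Those of Klra2, Klra5 and Klra6 each held both. These matches, too, describe letters only. RefSeq lists 2 starts for Klra8, of which 1 is shown. The Klra genes, like the Klrb1 genes, are close relatives in sequence, and which copies a probe reads was not tested, so their values are uncertain between copies.

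Klra16 was 1.62-fold higher at 3 hr (log2 0.70 ± 0.14, adjusted p = 0.000157) and 3.39-fold at 24 hr (log2 1.76 ± 0.14, adjusted p = 1.33e-10). Its other kept probes, above background on 10 and 6 arrays, gave 0.91 and 0.35 at 3 hr and 2.98 and 2.45 at 24 hr. Klra9 was 1.45-fold and 2.66-fold higher (log2 0.53 and 1.41, adjusted p = 0.0141 and 3.34e-07). The 3 hr call of Klra9 was lost under the block (adjusted p = 0.068) and without the untreated replicate 5 array (log2 0.41, adjusted p = 0.0561). Klra6 was above background on no untreated array and on 4 arrays at 24 hr, where it was at least 1.49-fold higher (log2 2.60 ± 0.28, adjusted p = 2.61e-08). Klra5 was called higher at both times (log2 0.69 and 0.76, adjusted p = 0.0019 and 0.000632), but under a slide block neither passed and the 24 hr value became -0.08, with normexp it was -0.11 (adjusted p = 0.184), and its second probe gave 2.69 at 24 hr.

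Klra1 and Klra2 behaved otherwise. Klra1 was at -0.41, 0.44, -0.13, -0.48 and -0.12 on the untreated arrays, at 0.10, 0.00, -0.55, -0.34 and -0.49 at 3 hr, and at -0.19, -0.03, -0.19, 0.01 and -0.03 at 24 hr. These ranges overlap, and neither difference passed (log2 -0.12 ± 0.15 and 0.05 ± 0.15, adjusted p = 0.5 and 0.765). In a fit with slide terms the 3 hr value was -0.32 and passed (adjusted p = 0.0184). Klra2 was 1.52-fold lower at 3 hr (log2 -0.60 ± 0.21, adjusted p = 0.0148). That call was lost under the block (adjusted p = 0.229) with normexp (log2 -0.27, adjusted p = 0.0637) and without the ConA + vehicle 3 hr replicate 2 array (log2 -0.45, adjusted p = 0.0566), and the 24 hr change of 0.29 did not pass.

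Klrd1 and Klre1 form the CD94 group. Klrd1 encodes CD94, the partner of the NKG2 receptors for the class I molecule Qa-1. It was at -3.72, -3.32, -3.35, -3.70 and -4.39 on the untreated arrays, at -4.13, -3.28, -4.77, -4.79 and -4.72 at 3 hr, and at -1.10, -0.99, -1.42, -1.56 and -1.36 at 24 hr. The 24 hr arrays lay well above the other groups, which overlap. Klrd1 rose 5.32-fold at 24 hr (log2 2.41 ± 0.25, adjusted p = 1.46e-08, block 2.52). At 3 hr it was 1.56-fold lower (log2 -0.64 ± 0.25, adjusted p = 0.0328), a call that was lost without any one of 6 arrays (untreated replicates 2, 3 and 4 and ConA + vehicle 3 hr replicates 3, 4 and 5), with log2 falls of 0.53 to 0.64 and adjusted p up to 0.0953, and with normexp it turned to 0.034 (adjusted p = 0.81). Klre1, which pairs with NKG2-I, was 4.50-fold higher at 24 hr (log2 2.17 ± 0.29, adjusted p = 6.15e-07), with 5 arrays above background against 1 untreated array, and did not pass at 3 hr, where no array was above background.

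Klrg1 encodes an inhibitory receptor for cadherins on mature NK and effector T cells. It was at -3.45, -5.05, -4.31, -4.04 and -3.72 on the untreated arrays, at -5.28, -4.83, -4.45, -4.69 and -4.81 at 3 hr, none of these above background, and at -2.65, -3.32, -3.88, -3.88 and -4.28 at 24 hr. The untreated range overlapped both others. It was called at least 1.23-fold lower at 3 hr (log2 -0.70 ± 0.29, adjusted p = 0.0428), a call lost under the block (adjusted p = 0.286) and without any one of 7 arrays (untreated replicates 1, 4 and 5 and ConA + vehicle 3 hr replicates 1, 2, 4 and 5; adjusted p up to 0.129), and with normexp it turned to 0.061 (adjusted p = 0.646). At 24 hr it did not pass (log2 0.51, adjusted p = 0.123). Klrg2, a relative of less known function, was at -3.50, -3.10, -3.55, -3.58 and -3.62 on the untreated arrays, at -3.16, -3.79, -2.95, -2.82 and -2.68 at 3 hr, and at -3.18, -3.50, -3.62, -3.26 and -3.22 at 24 hr. Its groups overlapped and neither difference passed (log2 0.39 and 0.12).

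The remaining 5 members are C-type lectins outside the chromosome 6 cluster. Clec14a encodes an endothelial surface lectin that takes part in vessel sprouting. It was at -0.77, -0.61, -0.54, -0.65 and -0.83 on the untreated arrays, at -4.77, -4.33, -3.79, -4.21 and -4.22 at 3 hr, and at -3.75, -3.55, -3.53, -3.32 and -3.70 at 24 hr. All arrays after ConA lay far below all untreated ones, and 2 of the 5 at 3 hr were above background. The fall was 12-fold at 3 hr (log2 -3.58 ± 0.12, adjusted p = 1.09e-16) and 7.41-fold at 24 hr (log2 -2.89 ± 0.12, adjusted p = 8.69e-15), with block values of -3.45 and -2.78. A second probe, above background on 5 arrays, gave -1.99 and -3.06.

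Clec3b encodes tetranectin, a plasma protein that binds plasminogen. It was 3.61-fold higher at 3 hr (log2 1.85 ± 0.20, adjusted p = 2.93e-08) and 8.39-fold higher at 24 hr (log2 3.07 ± 0.20, adjusted p = 5.19e-12), and a slide block gave 2.77-fold and 5.02-fold. Clec11a encodes a secreted growth factor of skeletal and blood stem cells. It was at -0.94, -0.70, -0.89, -0.91 and -0.68 on the untreated arrays, at -1.42, -1.66, -1.33, -1.68 and -1.39 at 3 hr, and at -2.20, -2.53, -2.31, -2.13 and -2.27 at 24 hr. The 3 groups did not overlap. It fell 1.59-fold at 3 hr (adjusted p = 4.77e-06) and 2.76-fold at 24 hr (log2 -1.46 ± 0.10, adjusted p = 1.49e-11).

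Clec16a encodes an intracellular protein of mitophagy that carries the family name without a classical lectin role. It was at -0.48, 0.05, -0.12, 0.08 and -0.21 on the untreated arrays, at 0.07, 0.09, -0.19, -0.44 and -0.28 at 3 hr, and at -1.41, -1.24, -1.01, -1.35 and -1.09 at 24 hr. Only the 24 hr arrays stood apart, 2.12-fold lower (log2 -1.08 ± 0.12, adjusted p = 3.47e-08, block -1.17). Clec10a encodes a galactose-binding lectin of macrophages and dendritic cells. It was 1.54-fold higher at 24 hr (log2 0.63 ± 0.25, adjusted p = 0.0314), a call lost without any one of 4 arrays (untreated replicates 2 and 5 and ConA + vehicle 24 hr replicates 2 and 5; log2 0.44 to 0.60, adjusted p up to 0.119) and with normexp (log2 0.23, adjusted p = 0.17), and did not pass at 3 hr.

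Between 3 and 24 hr after ConA and vehicle, 29 of 37 members differed, 23 higher and 6 lower at 24 hr, where 68.4% of all genes were called, 33.2% higher and 35.3% lower. The median was 0.88 for the members and -0.03 for all genes. Among the 15 members above background on all 25 arrays, 6 were higher and 5 lower with a median of 0.17, so the excess of higher calls lay among members that were below background on some arrays. Klrd1 was 8.30-fold higher at 24 hr than at 3 hr (log2 3.05 ± 0.25, adjusted p = 2.92e-10), Klre1 at least 2.45-fold, Klra4 4.99-fold, Klra7 4.85-fold and Klra8 4.30-fold. Clec1a and Clec4a3, low at 3 hr, were 3.76-fold and 3.44-fold higher at 24 hr, and with normexp the Clec1a call was lost (log2 0.13, adjusted p = 0.288) and Klrd1 was 1.99-fold, Klra4 1.70-fold and Clec4a3 1.40-fold higher. The 6 members lower at 24 hr than at 3 hr were Clec4n, Clec1b, Clec2d, Clec2h, Clec11a and Clec16a. Clec9a was called higher (log2 0.50, adjusted p = 0.043), but not without any one of 7 arrays (adjusted p up to 0.152). Under a slide block 25 members were called, 23 of them among the 29 with the same direction, and the other 2 were Clec2e (log2 -1.16, adjusted p = 2.58e-06) and Klrg2 (log2 -0.98, adjusted p = 0.0195). With normexp background 25 members were called, 12 higher and 13 lower. No overlap between groups was seen for 24 members, against 52.3% of all genes. The comparison shares its vehicle arrays with the 2 comparisons above.

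At 3 hr BW245C, which stimulates the prostaglandin D2 receptor, was followed by few differences from vehicle among the members. The call was passed by 4 of 37, all higher, where 28.6% of all genes were called, 11.7% higher and 16.8% lower. The groups' arrays did not overlap for 2 of them, Clec2e and Klrg1, against 13.5% of all genes. The median was 0.10 for the members and -0.04 for all genes. In a fit with slide terms 3 members were called, of which Klrg1 and Clec14a were among the 4, and Clec3b joined with a lower level (log2 -0.57, adjusted p = 0.0407).

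Clec2e was at -0.14, 0.30, -0.15, 1.18 and 1.08 on the vehicle arrays and at 1.44, 1.32, 1.5, 1.2 and 1.57 on the BW245C arrays. It was 1.93-fold higher with BW245C (log2 0.95 ± 0.26, adjusted p = 0.00935). The vehicle arrays of replicates 4 and 5 lay on slide 3 with all the BW245C arrays, and these were the high ones: within that slide the difference was 0.28, and under a slide block it was 0.27 and did not pass (adjusted p = 0.194). Klra16 showed the same arrangement, with -2.09, -2.14, -2.58, -1.61 and -1.65 for vehicle and -1.65, -1.56, -1.70, -1.58 and -1.46 for BW245C. Its 1.34-fold difference (log2 0.43 ± 0.14, adjusted p = 0.027) was 0.04 within slide 3 and 0.14 under the block (adjusted p = 0.616), and it was lost without any one of 4 arrays (ConA + vehicle 3 hr replicates 1, 2 and 3 and ConA + BW245C 3 hr replicate 5; log2 0.28 to 0.40, adjusted p up to 0.0972). The other kept probes of Klra16 gave 0.57 and 0.0016. For Clec2e and Klra16 the slide moves with the groups, and its part in the result cannot be told apart beyond the values given.

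Klrg1 was below background on all 5 vehicle arrays at 3 hr, whose levels are given above, and at -4.02, -3.76, -3.20, -2.98 and -3.99 on the BW245C arrays, 4 of them above background. Every BW245C array lay above every vehicle array. The difference was at least 1.77-fold (log2 1.22 ± 0.29, adjusted p = 0.00397), 1.16 within slide 3 and 0.95 under the block (adjusted p = 0.0492). Clec14a was at -3.63, -3.77, -3.68, -3.81 and -3.58 on the BW245C arrays, above background on all 5, against 2 of 5 vehicle arrays, and 1 vehicle array lay within their range. It was 1.48-fold higher (log2 0.57 ± 0.12, adjusted p = 0.0019), 0.52 within slide 3 and 0.59 under the block. Its second probe gave -0.47, the mean of its probes gave 0.05 (adjusted p = 0.852), and normexp background gave -0.05 for it and 0.18 for Klrg1 (adjusted p = 0.256), so neither call held under normexp.

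**Figure D3:**
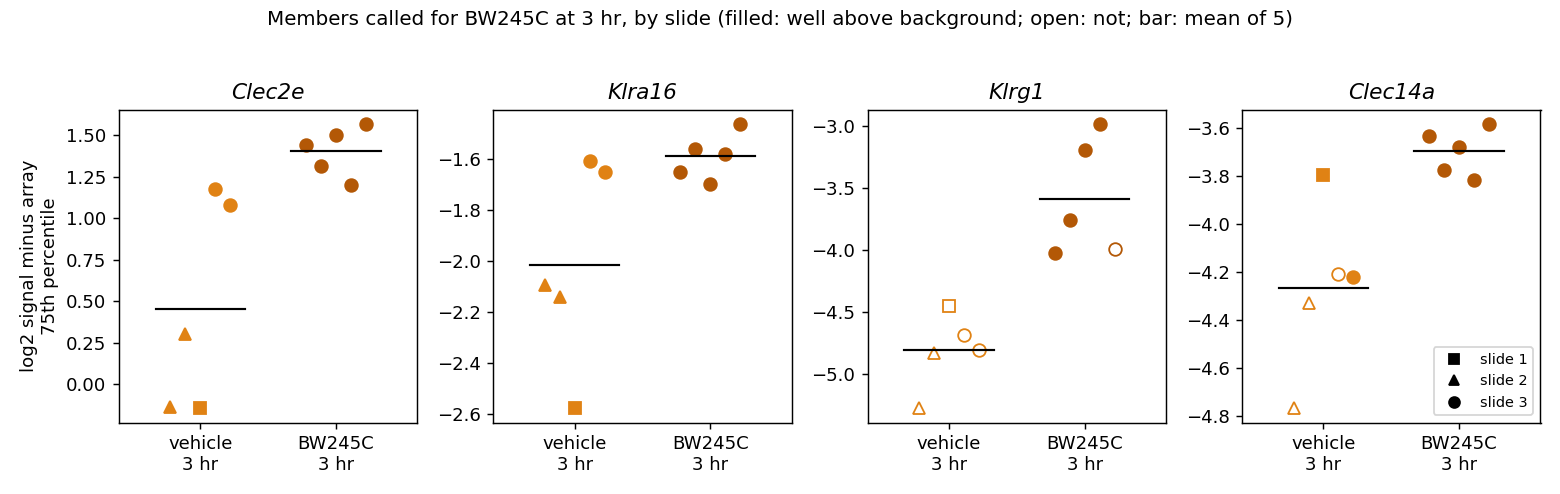
Points are the levels (log2 signal minus the array's 75th percentile, vertical axis) of the 4 members called for BW245C at 3 hr, on the 5 vehicle and 5 BW245C arrays, with the slide as the point shape, filled points well above background, open points not, and a bar at the mean. For Clec2e and Klra16 the 2 vehicle arrays on slide 3 lie near the BW245C arrays and the other 3 lie lower, while for Klrg1 all 5 vehicle arrays are low.

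At 24 hr with BW245C the Mincle pair was lower and Clec2h was higher than with vehicle, and no NK receptor passed the call. The call was passed by 8 of 37 members, 6 higher and 2 lower, where 26.5% of all genes were called, 17.6% higher and 8.94% lower. The groups' arrays did not overlap for 5 members, against 17.4% of all genes. The median was -0.10 for the members and 0.01 for all genes. Of the 15 members above background on all arrays 4 were called, all higher. The split depended on the scaling: it was 3 higher and 3 lower with the series matrix values and 4 higher and 3 lower with the percentile of probes above background on all arrays. Under a slide block 6 members were called, 5 of them among the 8 with the same direction. The sixth was Klra1, lower under the block (log2 -0.43, adjusted p = 0.00273). All 8 had the same sign within slide 4, which held 3 BW245C and 4 vehicle arrays of this time. These arrays also entered the calls, so the like signs are no separate support. Without the ConA + BW245C 24 hr replicate 5 array 5 members were called.

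Clec4d was at 0.35, -1.31, -0.15, 1.01 and 1.00 on the BW245C arrays at 24 hr, all below the vehicle arrays, whose lowest was 1.56. It was 3.47-fold lower (log2 -1.79 ± 0.38, adjusted p = 0.00123), -1.94 within slide 4 and -2.01 under the block (adjusted p = 0.00195). Clec4e was at -0.94, -2.40, -1.61, -0.77 and -0.32, again below every vehicle array. It was 3.02-fold lower (log2 -1.59 ± 0.31, adjusted p = 0.000695), -1.73 within slide 4 and -1.87 under the block (adjusted p = 0.000762). Both still lay above every untreated array. At 3 hr the BW245C arrays were at 0.61, 1.31, -0.01, 0.99 and 0.47 for Clec4d and at -0.79, -0.14, -1.47, -0.35 and -1.02 for Clec4e, overlapping with vehicle, with differences of 0.01 ± 0.38 and 0.04 ± 0.31 that did not pass. Neutrophil markers moved the same way: 8 of 11 were lower with BW245C at 24 hr and none higher, with a median of -1.70, and their part in the Clec4d and Clec4e result was not tested.

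Clec2h was at -3.90, -2.85, -2.33, -4.37 and -2.81 on the BW245C arrays at 24 hr, all above background, where none of the 5 vehicle arrays was. It was at least 2.92-fold higher (log2 3.00 ± 0.48, adjusted p = 9.86e-05), 2.35 within slide 4 and 2.97 under the block (adjusted p = 0.00117). With normexp it was 1.66-fold higher (log2 0.73, adjusted p = 0.00161). At 3 hr the BW245C arrays were at -4.0, -2.52, -3.25, -4.75 and -3.02, 4 of them above background against 2 with vehicle, and the difference of 0.79 ± 0.48 did not pass (adjusted p = 0.221). Hepatocyte markers were called higher with BW245C at 24 hr for 5 of 10 genes and lower for none. At 3 hr after ConA and vehicle, where Clec2h was already lower, 3 of the 10 were higher and 1 lower (median log2 0.07). Their part in the Clec2h results was not tested.

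Clec14a was at -2.62, -2.62, -2.59, -2.72 and -2.91 with BW245C at 24 hr, all above the vehicle arrays and all below the untreated ones. It was 1.84-fold higher (log2 0.88 ± 0.12, adjusted p = 3.28e-05), 0.87 within slide 4 and 0.95 under the block. Clec11a was at -1.41, -1.39, -1.74, -1.81 and -1.66, likewise without overlap, and 1.61-fold higher (log2 0.69 ± 0.10, adjusted p = 5.22e-05), 0.77 within slide 4 and 0.71 under the block. Of the stellate cell and fibroblast markers 7 of 11 were called higher and none lower, and of the sinusoidal endothelial markers 3 of 11 higher and none lower, and their part was not tested.

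The other 3 calls were less stable. Clec1b was at 1.13, 0.89, 0.88, 0.18 and 0.95 with BW245C, overlapping with vehicle, and 1.43-fold higher (log2 0.51 ± 0.19, adjusted p = 0.045). Its second probe gave 0.50 and its other probe -0.10, the opposite direction, and the mean of its probes gave 0.30 (adjusted p = 0.179). Clec9a was at -1.2, -1.17, -1.05, -1.96 and -1.2 with BW245C, against -2.18, -1.31, -1.87, -1.42 and -2.77 with vehicle, and 1.51-fold higher (log2 0.59 ± 0.21, adjusted p = 0.0426). Clec4a1 was at 0.15, -0.23, 0.18, 0.02 and 0.50 with BW245C, against -0.67, -0.12, -0.47, -0.30 and -0.30 with vehicle, and 1.41-fold higher (log2 0.49 ± 0.15, adjusted p = 0.0179). All 3 lost the call under a slide block (adjusted p = 0.0855, 0.127 and 0.0881). Clec1b lost it without any one of 12 arrays (log2 0.37 to 0.56, adjusted p up to 0.135), among them 4 of the 5 arrays of each 24 hr group (ConA + vehicle replicates 2 to 5 and ConA + BW245C replicates 1, 2, 3 and 5) and untreated replicates 1, 3, 4 and 5. For Clec9a the same held for 7 arrays (ConA + vehicle 24 hr replicates 1, 3 and 5 and ConA + BW245C 24 hr replicates 1, 2, 3 and 5; log2 0.38 to 0.60, adjusted p up to 0.138). For Clec4a1 it held for ConA + vehicle 24 hr replicate 1 (log2 0.42, adjusted p = 0.0616) and ConA + BW245C 24 hr replicate 5 (log2 0.40, adjusted p = 0.0563).

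**Figure D4:**
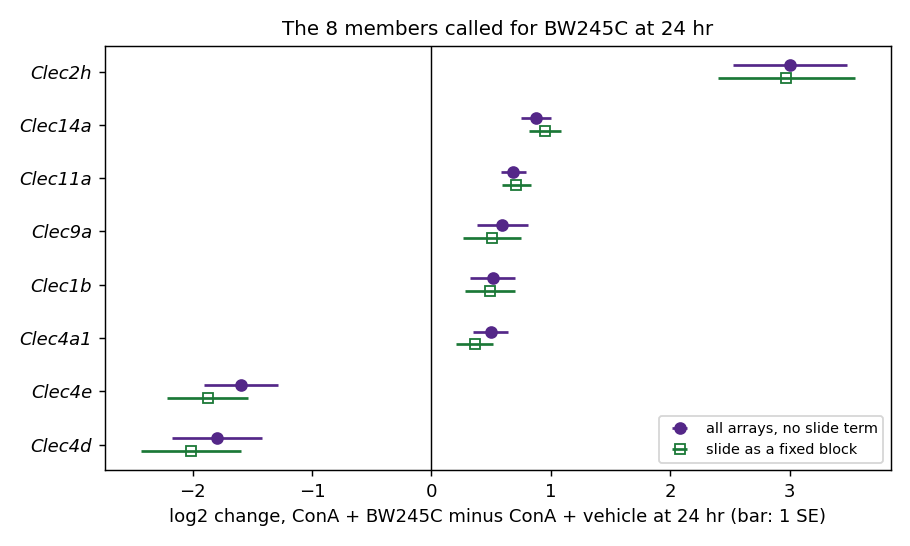
Points are the log2 changes (ConA + BW245C minus ConA + vehicle at 24 hr, horizontal axis) of the 8 members called at 24 hr, as fitted without a slide term (circles) and under a slide block (squares), with bars of 1 standard error. Clec2h lies at 3.00 and 2.97, Clec4d at -1.79 and -2.01 and Clec4e at -1.59 and -1.87, so the fits with and without the slide term gave like values for these members.

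None of the 9 Ly49, 4 NKR-P1, 2 CD94 and 2 Klrg1 members passed for BW245C at 24 hr. Klra4 was at -1.98, -2.80, -1.55, -1.44 and -1.22 with BW245C (log2 difference -0.11 ± 0.29, adjusted p = 0.813), and Klrd1 at -1.06, -1.76, -1.02, -1.17 and -1.12 (0.06 ± 0.25, adjusted p = 0.888). These arrays lay on both sides of the vehicle mean, and a difference that misses the threshold does not show that the groups were alike. The differences nearest to a call were those of Klra6 (-0.66 ± 0.28, adjusted p = 0.0919) and Klra1 (-0.32 ± 0.15, adjusted p = 0.109). NK markers gave 2 of 11 called lower and none higher.

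Whether the BW245C effect differed between 24 and 3 hr was tested as an interaction. It was called for 7 of 37 members, 3 higher and 4 lower at 24 hr, where 30% of all genes were called, 19.2% higher and 10.8% lower. The median was -0.13 for the members and 0.10 for all genes. For overlap, the mean of the vehicle arrays at the same time was subtracted from each BW245C array. These differences did not overlap between the 2 times for 9 members, against 34.3% of all genes. The spread of the vehicle arrays does not enter this count. The effect was lower at 24 hr for Clec4d (-1.81 ± 0.53, adjusted p = 0.0156), Clec4e (-1.63 ± 0.44, adjusted p = 0.00982), Clec2e (-1.18 ± 0.37, adjusted p = 0.0198) and Clec2i (-0.51 ± 0.19, adjusted p = 0.0475). It was higher for Clec2h (2.21 ± 0.68, adjusted p = 0.0185), Clec9a (1.01 ± 0.30, adjusted p = 0.0168) and Clec11a (0.51 ± 0.14, adjusted p = 0.0125). The Clec2h call was lost with normexp (0.58, adjusted p = 0.0634). In a fit with slide terms only Clec4e was called (-2.01, adjusted p = 0.0383), where 6.11% of all genes were. The Clec2i call was lost without any one of 17 of the 25 arrays (changes of 0.41 to 0.53 in size, adjusted p up to 0.103). By scaling, the split became 1 higher and 6 lower with the series matrix values and 2 higher and 6 lower with the percentile of probes above background on all arrays, and 4 higher and 3 lower with normexp background or quantile normalization.

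Behind these interactions, Clec2i was at -2.79, -3.13, -2.72, -2.72 and -2.46 with vehicle at 3 hr and at -2.47, -2.68, -2.51, -2.37 and -2.76 with BW245C. At 24 hr its BW245C arrays were at -2.24, -2.02, -2.67, -2.30 and -2.17. The groups overlapped at both times, and neither difference passed on its own (log2 0.21 and -0.30). Clec2e was at -0.02, 0.10, -0.06, -0.24 and 0.24 with vehicle at 24 hr and at 0.29, 0.33, -0.90, 0.14 and -1.0 with BW245C, where the difference of -0.23 did not pass. Clec9a was at -2.35, -2.46, -2.16, -2.50 and -2.54 with vehicle at 3 hr and at -3.01, -2.74, -3.11, -2.49 and -2.74 with BW245C, with 1 BW245C array inside the vehicle range. Clec11a was at -1.11, -1.31, -1.48, -1.41 and -1.30 with BW245C at 3 hr, where it overlapped with vehicle and did not pass (log2 0.17, adjusted p = 0.207).

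Clec4n, Clec2d, Klrb1c, Klra1, Klrg2 and Clec16a passed at neither time for BW245C. Clec4n was at 1.33, 2.09, 0.96, 2.00 and 1.38 with BW245C at 3 hr and at 1.12, 0.38, 0.91, 1.08 and 0.94 at 24 hr, overlapping with vehicle at both (log2 -0.22 and -0.24). Clec2d was at 3.11, 3.33, 3.16, 3.06 and 3.16, then at 2.39, 2.46, 3.00, 2.15 and 2.84 (log2 -0.15 and 0.29). Klrb1c was at -4.22, -3.07, -5.98, -4.03 and -4.26, then at -3.08, -4.44, -3.05, -3.05 and -2.76 (log2 -0.15 and -0.11). In each of these 3 the arrays with BW245C overlapped with vehicle at both times. Klra1 was at -0.32, -0.47, -0.12, -0.42 and -0.44, then at -0.62, -0.48, -0.13, -0.37 and -0.44, with 1 of the 24 hr arrays among the vehicle arrays. Klrg2 was at -2.27, -2.61, -2.71, -2.12 and -2.04, then at -2.94, -3.12, -4.23, -1.81 and -4.08 (log2 0.73 and 0.12). Clec16a was at -0.04, 0.14, 0.05, -0.04 and -0.11, then at -0.98, -0.60, -0.95, -1.08 and -1.08 (log2 0.15 and 0.28). These too overlapped with vehicle at both times.

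The signalling partners and ligands of the members were described from lists, and the genes named from them were chosen after their values were seen. Of 18 measured adaptors and kinases downstream of activating lectins and NK receptors, 6 were higher and 1 lower at 3 hr after ConA, and 11 higher and 1 lower at 24 hr, with medians of 0.29 and 0.62. Over all genes 62% and 68.9% were called at these times and 26.5% for BW245C at 24 hr, so the shares of this list were near or below the background. Syk, the kinase behind Mincle and Dectin-2, was higher at both times (log2 0.94 and 1.15, adjusted p = 0.000278 and 2.25e-05). Fcer1g, the gamma chain that Mincle uses, and Card9, the adaptor below SYK, were higher at 24 hr (log2 1.01 and 1.38, adjusted p = 8.86e-05 and 0.00162). Tyrobp, which encodes the adaptor DAP12 of the activating Ly49 receptors, passed at neither time (log2 -0.39 and 0.49, adjusted p = 0.186 and 0.091). With BW245C at 24 hr 2 of the 18, Bcl10 and Prkcd, were lower (log2 -0.39 and -0.48, adjusted p = 0.00662 and 0.0276) and none higher.

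Of 7 measured phosphatases and adaptors of inhibitory receptors, 1 was higher and 4 were lower at 3 hr, and 5 higher and none lower at 24 hr. Inpp5d, which encodes the lipid phosphatase SHIP1, was lower at 3 hr and higher at 24 hr (log2 -1.15 and 1.16, adjusted p = 1.27e-06 and 8.6e-07), and Ptpn6, which encodes SHP-1, likewise (log2 -0.39 and 0.61, adjusted p = 0.00335 and 2.31e-05). With BW245C at 24 hr none of the 7 was called. Of 14 measured ligand genes, 6 were higher and 2 lower at 3 hr and 7 higher and 5 lower at 24 hr. Pdpn, which encodes the CLEC-2 ligand podoplanin, was higher at 24 hr after ConA (log2 2.38, adjusted p = 4.09e-07) and lower with BW245C than with vehicle at 24 hr (log2 -1.55, adjusted p = 0.000866). H2-D1, which encodes a class I ligand of Ly49 receptors, was higher at both times after ConA (log2 0.96 and 0.81, adjusted p = 2.24e-09 and 2.51e-08).

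Of 30 measured genes of other lectin families, 11 were higher and 9 lower at 3 hr after ConA, and 14 higher and 13 lower at 24 hr. Olr1, the scavenger lectin for oxidised LDL whose gene lies in the same cluster, was higher at both times (log2 9.36 and 7.14, adjusted p = 6.35e-14 and 5.8e-12) and lower with BW245C at 24 hr (log2 -2.04, adjusted p = 0.00264). Mrc1, the mannose receptor of macrophages and sinusoidal endothelium, was lower at 24 hr after ConA (log2 -3.26, adjusted p = 1.94e-11) and higher with BW245C (log2 1.01, adjusted p = 0.00242). In that BW245C comparison 8 of the 30 were higher and 7 lower.

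Markers of the cell types that can carry these receptors moved in several directions. The summed signal of 11 NK markers, as multiples of the array's 75th percentile, ranged from 9.75 to 12.1 on untreated arrays, 13.7 to 18.1 at 3 hr and 30.0 to 38.9 at 24 hr after ConA and vehicle, and 22.4 to 31.2 at 24 hr with BW245C. Ncr1, a defining NK gene, was above background on 4 arrays and so fell under the filter. At 24 hr after ConA 10 of 11 NK markers and 11 of 13 T cell markers were higher and none lower. Their median log2 changes were 2.03 and 2.60. The summed T cell signal overlapped, at 36.8 to 76.1 untreated and 43.5 to 75.2 at 24 hr, but such a sum weighs the brightest genes most. Of 9 monocyte markers 6 were higher and 2 lower at 24 hr, with a median log2 change of 2.03. Their sum, weighted in the same way, was lower, at 864 to 949 against 975 to 1020. The 11 neutrophil markers summed to 116 to 128, 179 to 298, 262 to 394 and 134 to 210 in the same order of groups as the NK markers. At 24 hr after ConA 9 of them were higher, with a median log2 change of 5.26. The 12 Kupffer cell markers ranged from 83.5 to 127 in untreated livers and from 23.2 to 47.1 at 24 hr, with 10 lower and none higher. Of 11 sinusoidal endothelial markers 7 were lower and 3 higher at 24 hr, and 5 lower and 1 higher at 3 hr. All 5 measured platelet markers were higher at 3 hr, the opposite direction to Clec1b. Of the 12 Kupffer cell markers 4 were lower at 3 hr, the same direction as Clec1b, and none higher. All 10 hepatocyte markers were lower at 24 hr after ConA, while at 3 hr 3 were higher and 1 lower. What part these shifts have in the members' changes was not tested.

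**Figure D5:**
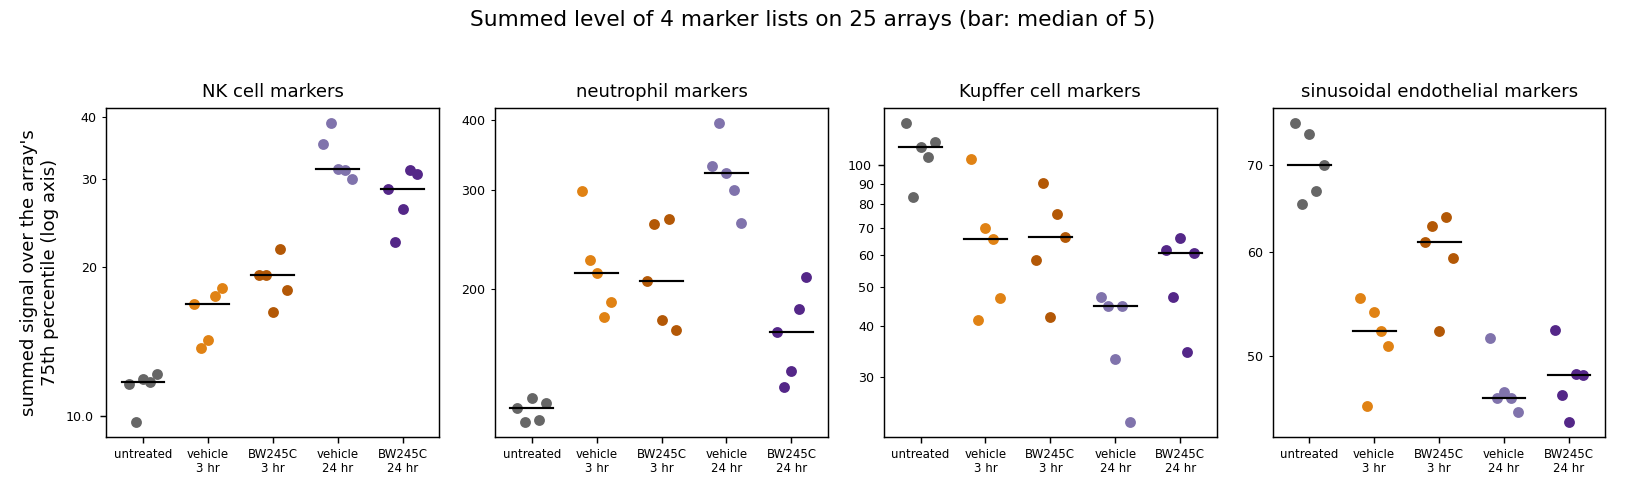
Points are the summed signals of 4 marker lists (multiples of the array's 75th percentile, log axis) on the 5 arrays of each group, with a bar at the median. NK markers lay between 30.0 and 38.9 at 24 hr after ConA and vehicle against 9.75 to 12.1 untreated, neutrophil markers were lower with BW245C than with vehicle at 24 hr, and Kupffer cell markers were lowest at 24 hr with vehicle.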

How the data were processed

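RNA from 25 mouse livers was measured on 25 single-colour Agilent arrays. The authors deposited scanner files whose processed signal is a background-corrected intensity, and a value table on a linear scale, per the file headers. Those values were the processed intensity times 1 factor per array, by a rule that the sources do not give. The software was Agilent Feature Extraction, version 10.7.3.1 per the file headers and 9.1 per the submitters' processing notes.

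From the deposited processed intensity, log2 was taken, each array's 75th percentile was subtracted, and spots of a probe were averaged. A probe was kept if well above background on at least 5 arrays, and the brightest kept probe stood for a gene. Symbols came from RefSeq accessions. All 25 arrays entered 1 limma model (3.58.1, R 4.3.3, the data.table package, version 1.17.8) with a mean per group. Figures were drawn in Python 3.11.15 (pandas 2.3.3, numpy 2.4.6, matplotlib 3.10.9). The fit was tested on simulated data. The alternatives were normexp background (offset 50, on the median spot signal), other scalings and filters, the mean of probes, slide and replicate blocks, stricter thresholds and each array left out.

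Values on every array are given for the 6 members of greatest change in each ConA comparison, every member called for BW245C or in the effect by time, and the member with the brightest probe in each family, which ranks no expression. The members and lists were chosen with earlier results of these data known.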

Additional observations from a re-analysis of the deposited data

Results flagged for a closer look

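In 14 of the 118 member and group combinations examined, 1 array stood far from the other 4, where chance gives about 1 in 20 groups. At 24 hr with vehicle the replicate 2 array was the highest for Clec4b1 (-2.32), Clec4n (1.74), Klra7 (-1.29) and Klra9 (-2.10). At 24 hr with BW245C the replicate 2 array was the lowest for Clec4n (0.38) and Klrd1 (-1.76) and the highest for Clec16a (-0.60), and the replicate 4 array was the lowest for Clec1b (0.18) and Clec9a (-1.96). Among untreated arrays replicate 2 was low for Clec1b (1.61) and high for Klrg2 (-3.10), and replicate 1 was high for Klra16 (-2.34). At 3 hr Clec4e was highest on the vehicle replicate 1 array (0.055) and Klra4 on the BW245C replicate 4 array (-3.30).

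The effect of BW245C differed between 24 and 3 hr, in the test of that difference, for Clec4d (-1.81), Clec4e (-1.63), Clec9a (1.01), Clec2e (-1.18), Clec2h (2.21), Clec2i (-0.51) and Clec11a (0.51). Only 1 of these, Clec4e, was called in the fit with slide terms. The Clec2h call was lost with normexp, and the Clec2i call without any one of 17 of the 25 arrays.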

How the results depend on the processing

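Single members were followed under the alternatives only where they were called as reported, so calls gained are not among these values. For each call, 25 of the 35 or 36 settings left out 1 array. Of the recomputed values, 3279 kept direction and side of the threshold, 177 lost the call and 13 changed sign. Of the counts of called members 216 stayed within 1.5 times and 18 did not. Normexp background turned the sign of Klrd1 (0.034) and Klrg1 (0.061) at 3 hr after ConA, of Klrb1 (-0.060), Klrb1b (-0.037) and Klra5 (-0.11) at 24 hr, and of Clec14a for BW245C at 3 hr (-0.051). Between 24 and 3 hr it turned Klrb1b (-0.32), Klrb1c (-0.088), Klra6 (-0.15), Klrg1 (-0.15) and Clec14a (-0.19). The slide as a fixed block turned Klra5 at 24 hr (-0.079), and the mean of probes turned Clec14a between 24 and 3 hr (-0.19). The cause was not tested. For BW245C at 3 hr, normexp gave 1 called member and the mean of probes and the slide as a random block 2 each. For the effect by time, the slide gave 1 as a fixed and 4 as a random block. Keeping the 15 members above background on all 25 arrays left 8 calls at 3 hr after ConA, 10 at 24 hr, 2 and 4 for BW245C at 3 and 24 hr, and 11 between the times, with fewer members tested. An adjusted p under 0.01 left 5 for BW245C at 24 hr and 1 for the effect by time. Asking for at least 2-fold left 12 at 3 hr after ConA, 1 and 3 for BW245C, and 19 between the times. Counting members above background on all 5 arrays of a group compared, an alternative chosen after seeing the data, left 15 at 3 hr after ConA. With each array left out in turn, the counts ran from 20 to 23 and 25 to 28 after ConA at 3 and 24 hr, 3 to 5 and 5 to 10 for BW245C, 28 to 31 between the times and 6 to 9 for the effect by time. The 5 for BW245C at 24 hr came without the ConA + BW245C 24 hr replicate 5 array. The median of all genes moved most with the series matrix values, by 0.34 at 24 hr after ConA and 0.45 between the times.

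With the replicate number as a block, 22, 27, 4, 6, 28 and 6 members were called in the same order of comparisons. The numbers do not pair the arrays: same-numbered arrays correlated at a median of -0.01, over 0.1 in 10 of 50 pairs, and 4 of 25 arrays correlated best with their own number. Signal over background limits the 11 members with a group wholly below it. In the processed signal, a comparison with such a group has an "at least" fold or none, beside any fitted log2 change.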
